A study of Homo sapiens with 3 samples.

Results

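Interferon-stimulated genes were read across 3 RNA-seq libraries of PANC-1, an established human pancreatic ductal carcinoma cell line. The set holds 9 genes taken by name, of 51136 gene symbols in the count table, and it was drawn up with earlier results of these data known. Of these, 3 encode transcription factors (STAT2, IRF9 and IRF1) and 6 encode interferon-induced effectors (ISG15, IFIT1, IFIT2, IFIT3, MX1 and IFI6). The control library came from cells given no agent, the Rg3 library from cells given 200 μM ginsenoside Rg3 for 24 h, and the TAM library from cells given 50 μM tamoxifen for 24 h. Ginsenoside Rg3 is a saponin of ginseng, and tamoxifen is an estrogen receptor modulator that the study used as an inhibitor of protein kinase C. All 3 libraries share the cell line and its medium, and the labels name no vehicle for the control cells. Each condition had 1 library, so no difference below has a replicate check, and whether a library pooled several cultures is not given. Because the RNA is bulk RNA, fewer cells that express a gene and less of its RNA per cell cannot be told apart.

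Type I interferons bind the receptor IFNAR1/IFNAR2, whose kinases JAK1 and TYK2 phosphorylate STAT2. With IRF9 it is part of the complex ISGF3, which binds the interferon-stimulated response element (ISRE) in front of antiviral genes. Interferon gamma acts at gamma-activated sites (GAS), and IRF1 is a factor induced that way that also reads ISRE-like sequence. Many of these genes keep a basal level in tumor cells without added interferon.

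The promoter letters show which of the 9 genes carry these elements. RefSeq windows on GRCh38.p14, from 250 bases before a transcription start to 50 after it, were found for 8 of the 9 genes, and IFIT2 is named only. The ISRE core was searched as GAAANNGAAA and the GAS core as TTCNNNGAA, on both strands. The ISRE core stood in 3.57% of the 35116 windows of the table and the GAS core in 7.66%. Counted by gene, with a match in any window, the shares were 4.38% and 9.38% of 27305 genes. Each of the 5 effectors with a window held an ISRE core, and none of the 3 factors did. The GAS core was found for IRF1, IRF9 and the effector MX1. The stretches below are those that hold the cores of 4 effectors and of IRF1, read 5′ to 3′ on the strand of the gene, with the cores in capitals.
ISG15, chr1:1013369-1013414, plus strand: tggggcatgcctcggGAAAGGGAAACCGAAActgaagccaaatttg
IFIT1, chr10:89392492-89392544, plus strand: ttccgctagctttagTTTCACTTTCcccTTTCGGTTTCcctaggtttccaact
IFIT3, chr10:89327826-89327899, plus strand: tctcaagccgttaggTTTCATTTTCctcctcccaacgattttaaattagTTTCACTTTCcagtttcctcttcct
IFI6, chr1:27672261-27672363, minus strand: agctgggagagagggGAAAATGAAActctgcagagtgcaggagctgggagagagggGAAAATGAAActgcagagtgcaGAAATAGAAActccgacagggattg
IRF1, chr5:132490874-132490912, minus strand: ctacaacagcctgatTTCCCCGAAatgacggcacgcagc

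In ISG15 the pair of ISRE cores overlapped, from -113 to -104 and from -107 to -98 relative to the start. IFIT1 and IFIT3 carried theirs in the reverse orientation, and 1 core, TTTCACTTTC, recurred in both genes. A second start of IFIT3 also held 2 ISRE cores. IFI6 held 3, and 2 of them were the same letters, GAAAATGAAA. MX1 has 3 annotated starts. Its cores stood at 12 to 21 bases after the first of them and at -196 to -187 before the last, where a GAS core overlapped the ISRE core. The GAS core of IRF9, TTCTGGGAA, stood at -63 to -55. A match is a description of the letters, and a window without a match shows only that these letters are not in it.

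**Figure D1:**
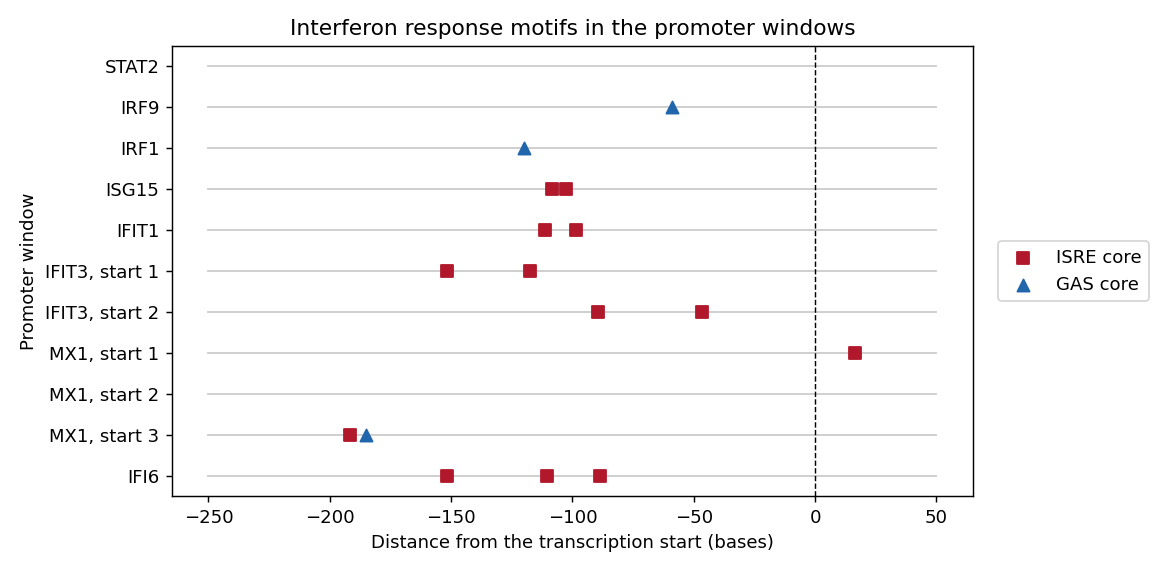
Positions of the ISRE core (squares) and the GAS core (triangles) in the promoter windows of 8 genes, in bases from the transcription start (dashed line), with 1 line per annotated start. ISRE cores stand in the windows of ISG15, IFIT1, IFIT3, MX1 and IFI6, and the windows of STAT2, IRF9 and IRF1 hold none.

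The plot of motif positions shows that the ISRE cores of ISG15, IFIT1, IFIT3 and IFI6 all lay before the start, the nearest at -51 to -42 of the second IFIT3 start. Among the other type I interferon-stimulated genes listed for comparison, 21 of the 28 with a window held an ISRE core. Of the 8 receptor and kinase genes with a window, 0 did.

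The depth of the libraries was similar. The reads that fell on genes numbered 11300766 (control), 12861693 (Rg3) and 11321442 (TAM). The limit set by a count of 0 is 3 counts, or 0.233 to 0.265 CPM (counts scaled to the library total). Keratins and other markers of ductal epithelium were counted in every library, with 8 of 8 markers at 10 or more counts in the control and Rg3 libraries and 6 of 8 in the TAM library, where CDH1 had 5 counts and EPCAM 8. Their summed levels were 2550 (control), 1330 (Rg3) and 2560 (TAM) CPM. Of the 8 leukocyte markers, 5 to 7 were at 0 in each library, and only CD14 had 10 or more counts (97, 46 and 37). The 5 fibroblast markers were at 0 to 5 counts in each library apart from COL1A1 (734 to 1853), and the 5 endothelial markers at 0 to 3 apart from KDR (49 to 54). The part of these markers in the values below was not tested.

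The pathway was read without its ligands. Of the 21 interferon genes in the count table (type I, II and III), 19 had 0 counts in every library. IFNE had 0, 1 and 1 counts in the control, Rg3 and TAM libraries, and IFNL3 had 1, 1 and 0. IFNB1, an early type I interferon of infected epithelial cells, was at 0 throughout.

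The 9 genes ranged over about 3 orders of magnitude in level. Levels between genes are given as RPKM, which are reads per kilobase of the longest protein-coding transcript scaled to the reads counted on genes, with exact Poisson 95% intervals that cover counting error only. ISG15, a ubiquitin-like protein that is both secreted and attached to other proteins, was the most abundant, at 139 (131 to 147) for control, 118 (112 to 125) for Rg3 and 111 (105 to 119) for TAM. It alone gave 50.6% to 56.7% of the reads of the set in each library. The next gene was lower by factors of 11.7 (control), 7.38 (Rg3) and 7.66 (TAM). IFI6, a mitochondrial protein that counters apoptosis, came second, at 11.9, 16.0 and 14.5. STAT2, the subunit of ISGF3 that activates transcription, followed at 10.4, 9.71 and 7.21.

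IRF9, the DNA-binding subunit of ISGF3, stood at 6.93, 4.70 and 6.97 on the same scale, in the order control, Rg3 and TAM. IRF1 stood at 4.90, 5.32 and 5.53. IFIT1, which binds viral RNA that lacks a methylated cap, was lower, at 1.55, 2.97 and 1.24. Its relatives IFIT2 (0.263, 0.630 and 0.310) and IFIT3 (0.319, 0.623 and 0.283) and the antiviral GTPase MX1 (0.128, 0.157 and 0.255) were the lowest of the set, on 5 to 30 counts. Within the order, intervals of neighbours overlapped for IFI6 and STAT2 in the control library, for IRF1 and IRF9 in the Rg3 library, and, with TAM, for STAT2 beside IRF9 and for IRF9 beside IRF1. The intervals of IFIT2, IFIT3 and MX1 overlapped in the control and TAM libraries, while in the Rg3 library those of IFIT2 and IFIT3 overlapped and MX1 lay below. With the mean length over a gene's transcripts in place of the longest, STAT2 took the second rank in each library (23.4, 21.9 and 16.3).

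**Figure D2:**
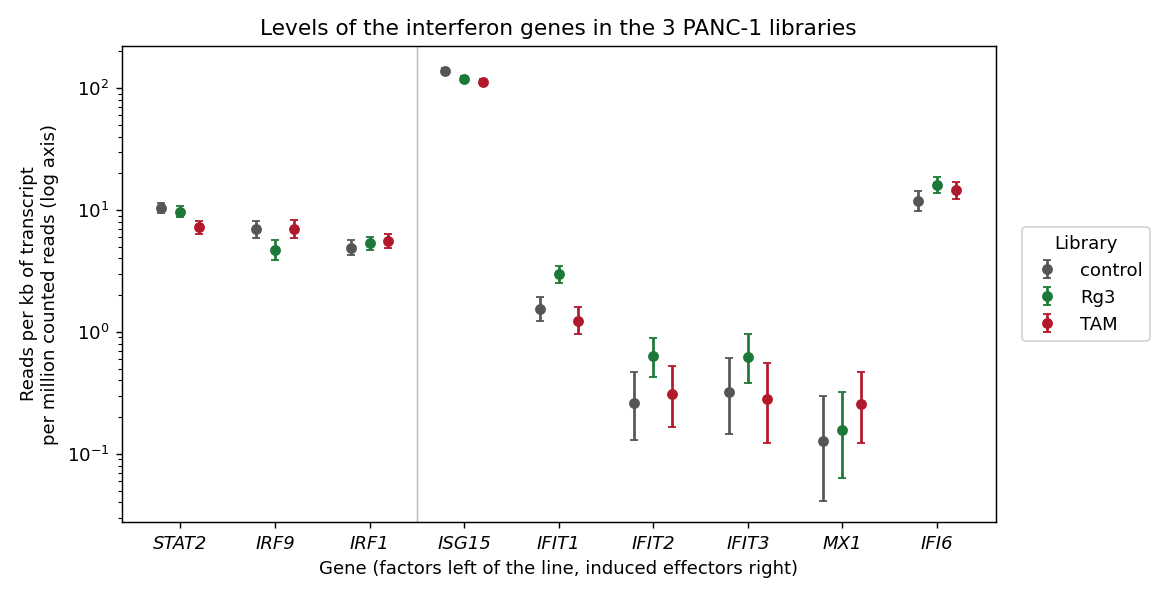
Level of each of the 9 genes in the control, Rg3 and TAM libraries, in RPKM (counted reads scaled to transcript length and library total) on a log axis, with bars for exact Poisson 95% intervals. ISG15 lies near 100 in each library, IFIT2, IFIT3 and MX1 lie under 1, and the Rg3 point of IFIT1 stands above the other points of that gene.

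The plot of levels places the 3 factors in a narrow band, from 4.70 to 10.4 over all libraries, and spreads the effectors from 0.128 to 139. A gene was compared where 10 counts or more stood in either library, which held for 8 of the 9 genes with Rg3 against control, 8 with TAM against control and 9 with TAM against Rg3. Fold changes are log2 ratios of counts after TMM scaling, with exact Clopper-Pearson 95% intervals. A gene was called higher or lower with a fold over 1.5 or under 0.67 and a Benjamini-Hochberg adjusted p under 0.05 in the exact two-sided binomial test over all genes compared. That test compares the reads of 2 libraries, not the 2 conditions.

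With Rg3, IFIT1 and IFIT2 rose and IRF9 fell relative to the control library. Of the 8 genes compared, 2 were called higher, beside 20.2% of all 16487 genes, and 1 was called lower, beside 16.2%. The median log2 fold change of the 8 was 0.13, beside 0.04 over all genes. The counts of 2 and 1 lie near those background shares. IFIT1, IFIT2 and IRF9 stood at 0.22, 0.58 and -0.35 without a trend on GC content and length, described below. None of them was then called.

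IFIT1 had 81 counts without an agent, 176 with Rg3 and 65 with TAM. The Rg3 library stood above the other two, and its log2 fold change against control was 0.79 (0.40 to 1.18), a 1.72-fold rise with an adjusted p of 0.000106 in the exact binomial test. IFIT2, which can promote apoptosis, had 11, 30 and 13 counts in the same order. Its log2 fold change with Rg3 was 1.11 (0.08 to 2.26), with an adjusted p of 0.045 by the exact test, so that the call rests on few reads and an interval that nearly reaches 0. IFIT3, a partner of IFIT1 in its RNA-binding complex, had 9, 20 and 8 counts. Its value of 0.82 (-0.38 to 2.14) was of the same size but did not pass the exact test (adjusted p = 0.252). Taken as 1 sum, the 3 IFIT genes had 101, 226 and 86 counts.

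The 3 IFIT genes lie side by side on chromosome 10 of GRCh38 by GENCODE 29, IFIT2 at chr10:89283694-89309276, IFIT3 at chr10:89327894-89340971 and IFIT1 at chr10:89392546-89406486, all on the plus strand. LIPA, the gene of lysosomal acid lipase, spans all of them on the minus strand, at chr10:89213569-89414557. Its exons overlap those of IFIT2 and not those of IFIT1 or IFIT3. LIPA had 504, 1395 and 462 counts, with a log2 fold change of 1.14 (0.99 to 1.29) with Rg3 and 0.08 (-0.10 to 0.27) with TAM. The use of strand in counting is not given in the sources used here, so reads of LIPA and of IFIT2 in the shared exons cannot be told apart, and the part of LIPA in the IFIT values was not tested. IFIT2 also shares 8.40% of its 50-base stretches with AL353751.1 on its own strand. IFIT1 shares 1.03% with IFIT1B, which had 0 counts in each library, and IFIT3 shares 2.62% with RBSN.

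IRF9 had 144 counts without an agent, 111 with Rg3 and 145 with TAM. The Rg3 library was the low one, and the log2 fold change against control was -0.71 (-1.08 to -0.34), a fold of 0.612 with an adjusted p of 0.000273 in the exact binomial test. Under division by library totals, the value was -0.56, and the gene was no longer called. IRF9 lies at chr14:24161053-24166565 on the plus strand, in a transcript of 9 exons. All of its 50-base stretches (100%) recur in the read-through gene AL136295.5, which spans it on the same strand, so its reads are uncertain to the extent that counting split them.

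STAT2 had 382, 407 and 266 counts in the control, Rg3 and TAM libraries. Its log2 fold change with Rg3 was -0.24 (-0.45 to -0.04), with an adjusted p of 0.0335 by the exact test, and it was not called because the fold of 0.845 lay inside the limits. STAT2 lies at chr12:56341597-56360155 on the minus strand and shares no 50-base stretch with another gene. IRF1 had 198, 245 and 224 counts. Its value with Rg3 was -0.03 (-0.30 to 0.25) and turned to 0.12 with library totals, so that it has no direction here. IRF1 lies at chr5:132481609-132490798 on the minus strand, and its exons overlap C5orf56 on the other strand, which had 15, 11 and 9 counts. AC116366.3 spans IRF1 on the other strand, also overlaps its exons, and was not found by that name in the count table. IRF1 shares 4.70% of its 50-base stretches with other genes, most often MFSD11.

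ISG15 had 1235 counts without an agent, 1197 with Rg3 and 993 with TAM, and the control library was the highest. With Rg3, its log2 fold change was -0.38 (-0.50 to -0.26), with an adjusted p of 4.62e-10 in the exact test and a fold of 0.769, inside the fold limits and so not called. ISG15 lies at chr1:1001138-1014540 on the plus strand, in a transcript of 787 bases. IFI6 had 113, 173 and 138 counts, lowest in the control library. Its value with Rg3 was 0.28 (-0.07 to 0.64), with an adjusted p of 0.154 by the exact test. IFI6 lies at chr1:27666061-27672218 on the minus strand. MX1, at chr21:41420304-41459214 on the plus strand, had 5, 7 and 10 counts, and with Rg3 it stayed under the minimum for a comparison.

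With TAM, none of the 8 genes compared passed the call. The count was 0 higher, beside 14.0% of all 16079 genes, and 0 lower, beside 18.4%, although 3 of the 8 had an unadjusted p under 0.05 in the exact binomial test. The median log2 fold change was 0.30, beside -0.02 over all genes. STAT2 was at -0.32 (-0.55 to -0.09), with an adjusted p of 0.0138 by the exact test. IRF1 was at 0.39 (0.10 to 0.67), with an adjusted p of 0.0132 by the exact test. IFI6 was at 0.50 (0.13 to 0.87), a 1.41-fold difference with an adjusted p of 0.0161 by the exact test. These 3 are the genes whose intervals left out 0, and each fold lay inside the limits. With library totals, IFI6 was at 0.29, IRF1 at 0.175 and STAT2 at -0.525. Without a trend on GC content and length, described below, they were at 0.10, 0.32 and -0.37. None of these values was called, and their size depends on the scaling.

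The other values with TAM had intervals that held 0. ISG15 was at -0.11 (-0.23 to 0.01), IRF9 at 0.22 (-0.13 to 0.56), IFIT1 at -0.11 (-0.60 to 0.38) and IFIT2 at 0.45 (-0.83 to 1.75). With library totals ISG15 was at -0.32, a fold still inside the limits. The largest value was that of MX1, at 1.21 (-0.48 to 3.11), from 5 counts to 10. Its adjusted p was 0.191 by the exact test, and a difference of this size was not detectable at this depth. IFIT3, with 9 and 8 counts, was not compared.

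The treated libraries were also set against each other, at doses that differ (200 μM Rg3 and 50 μM TAM). Of the 9 genes, 1 was called higher with TAM than with Rg3, beside 27.3% of all 16493 genes, and 1 was called lower, beside 30.7%. The median was 0.22, beside -0.07 over all genes. IRF9 was higher with TAM, by 0.93 on the log2 scale (0.56 to 1.30), with an adjusted p of 6.55e-07 in the exact test. IFIT1 was lower, at -0.90 (-1.33 to -0.48), with an adjusted p of 1.97e-05 in the exact test. ISG15 (0.27, 0.15 to 0.39) and IRF1 (0.41, 0.14 to 0.68) also had intervals above 0, with folds inside the limits. With library totals IRF9 was at 0.57, not called, and ISG15 turned to -0.086. Without a trend on GC content and length, described below, IRF9 was at 0.18 and IFIT1 at 0.17, neither called, and ISG15 was called lower, at -0.82 with an adjusted p of 6.11e-39 in the exact test. For IFIT2 (-0.67, -1.73 to 0.32), IFIT3 (-0.78, -2.17 to 0.46), MX1 (1.06, -0.49 to 2.69), STAT2 (-0.07, -0.30 to 0.15) and IFI6 (0.22, -0.12 to 0.55) the intervals held 0. This comparison shares its libraries with those against control and is no further evidence on them.

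By the fold alone, with no p, 3 of the 8 genes were higher with Rg3 (IFIT1, IFIT2 and IFIT3), beside 24.7% of all genes, and 1 was lower (IRF9), beside 19.8%. With TAM, 1 was higher (MX1), beside 17.5%, and 0 were lower, beside 23.7%. Between TAM and Rg3, 2 were higher (IRF9 and MX1), beside 30.2%, and 3 were lower (the IFIT genes), beside 35.1%.

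**Figure D3:**
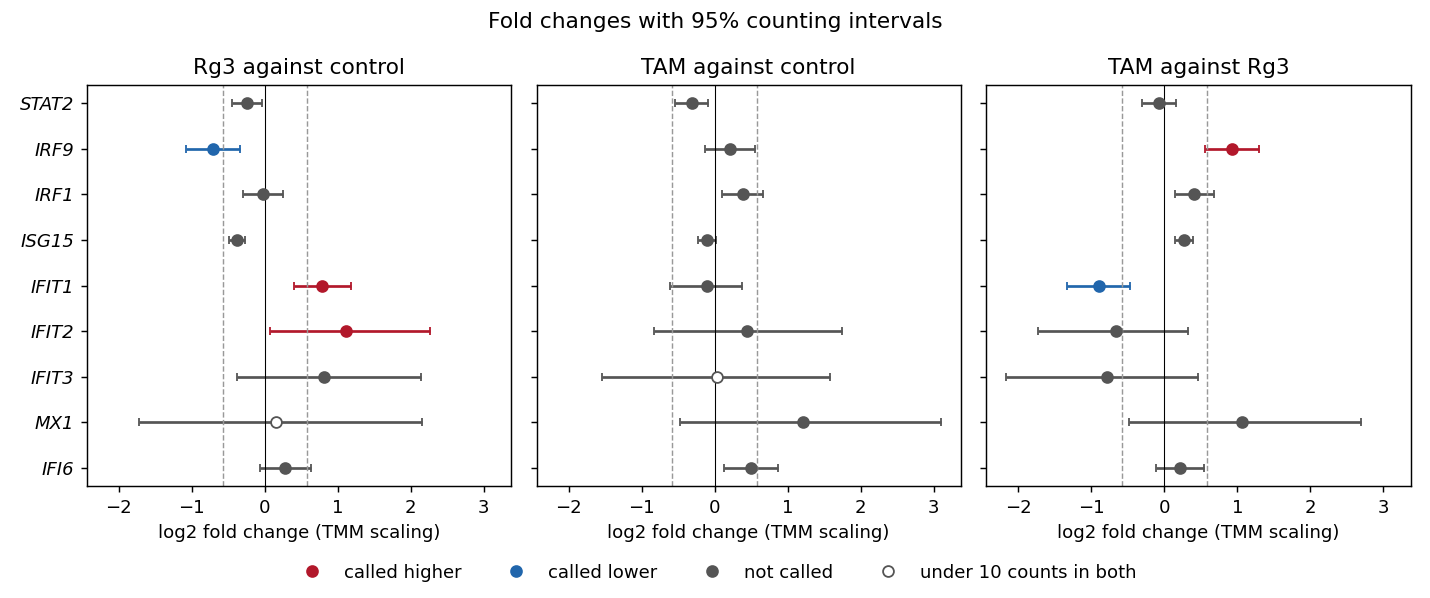
Log2 fold changes (TMM scaling) of the 9 genes for Rg3 against control, TAM against control and TAM against Rg3, with bars for exact 95% counting intervals and dashed lines at folds of 0.67 and 1.5. Red points are called higher, blue points called lower, and open points had under 10 counts in both libraries; IFIT1 and IFIT2 are red and IRF9 is blue with Rg3, and no point is coloured with TAM.

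The plot of fold changes shows the narrow intervals of ISG15 and STAT2, which had 266 to 1235 reads, beside the wide ones of IFIT3 and MX1. Counting error leaves out the spread between cultures. Where edgeR's exact test was given a biological coefficient of variation of 0.2 for that spread, 0 of the 9 genes passed in any of the 3 comparisons. Of all genes, 0.376% were then higher and 0.57% lower with Rg3, 0.684% and 2.26% with TAM, and 13.2% and 17.6% between TAM and Rg3. Because so few of all genes passed against control, the 0 for the set in those comparisons says nothing of it. At 0.4, at most 1 gene of the whole table passed in a comparison, so the 0 of 9 there says nothing of the set either. At 0.2, the adjusted p of that exact test with Rg3 was 0.369 for IFIT1, 0.41 for IFIT2 and 0.414 for IRF9.

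Fold changes over all genes moved with the base composition of the transcripts. Spearman's rho between the log2 fold change and GC content was -0.82 with Rg3, over 11583 genes of 50 counts or more, and 0.52 with TAM, over 11022 genes. Genes are not independent replicates, and the points share their libraries. The IFIT genes are the poorest of the set in GC, IFIT1 at 42.2%, IFIT2 at 42.8% and IFIT3 at 44.3%. The richest were ISG15 at 63.4%, IFI6 at 56.1% and IRF9 at 55.4%. STAT2 (51.6%), MX1 (52.4%) and IRF1 (53.2%) lay between them.

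Once a smooth trend on GC content and transcript length was removed, the calls with Rg3 were other ones. IFIT1 stood at 0.22 with an adjusted p of 0.448 in the exact test, IFIT2 at 0.58 with 0.483, and IRF9 at -0.35 with 0.133, none of them called. IFI6 was called higher instead, at 0.60 with an adjusted p of 0.00256 in the exact test, in a setting where 4.66% of all genes were. ISG15 turned from -0.38 to 0.18 with Rg3. With TAM, ISG15 was called lower after removal of the trend, at -0.62 with an adjusted p of 4.54e-23 in the exact test, beside 10.9% of all genes. 

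**Figure D4:**
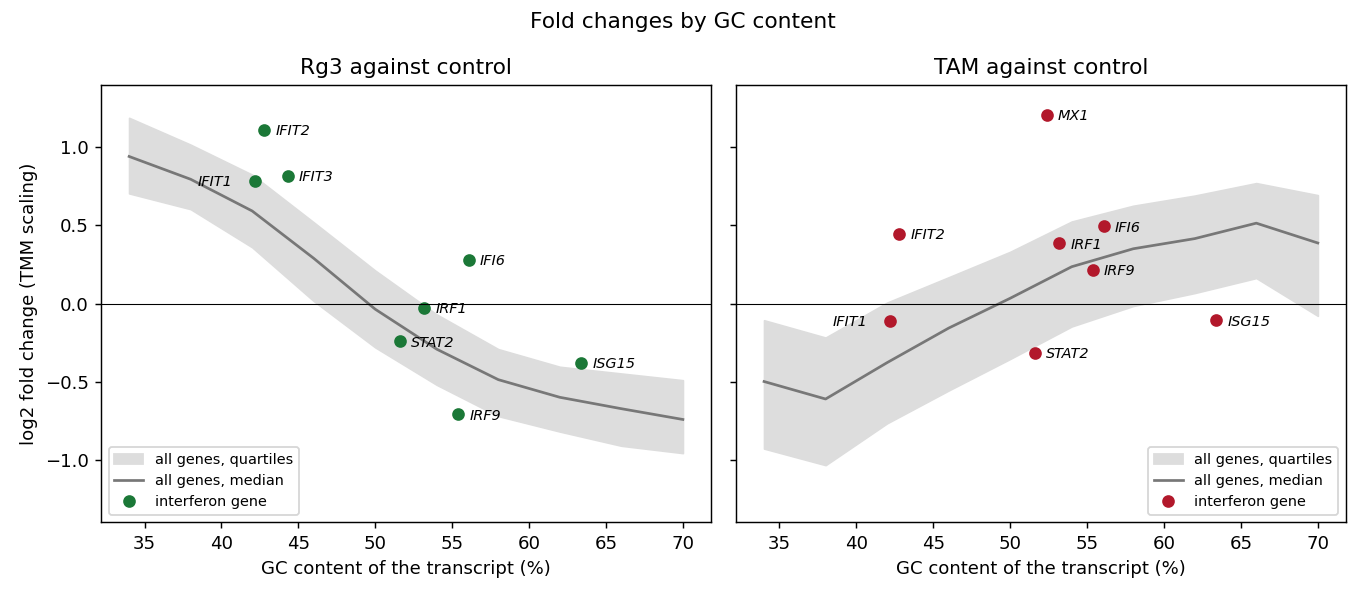
Log2 fold change (TMM scaling) against GC content of the transcript, with Rg3 on the left and TAM on the right, for the interferon genes compared (points), over the median (line) and the quartiles (band) of all genes with 50 counts or more, in bins of GC content. With Rg3, IFIT1 lies inside the band, IRF9 just below it and IFI6 above it, and with TAM, ISG15 lies below the band.

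The plot against GC content shows IFI6 above the band with Rg3 and ISG15 below it with TAM. IFIT2 and IFIT3 with Rg3, and IFIT2 and MX1 with TAM, also lie above the band, on 5 to 30 counts, and were not called without the trend. ISG15 with Rg3 stands just above the band, and STAT2 with TAM just below its drawn edge. Neither was called without the trend (0.18 and -0.37). ISG15, as the gene of the set with the most reads, was also placed among all genes by its pair of fold changes against control. Of 8424 genes with at least 100 counts in each library, 383 lay within 0.2 of it by Euclidean distance on the log2 scale. The nearest were ESYT1, SAFB, BTD, ECH1 and SETDB1, at distances of 0.0041 to 0.0244.

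Around the 9 genes stand the other genes of the pathway, given by list. The shares of all genes to read these counts against are 20.2% higher and 16.2% lower with Rg3, and 14.0% and 18.4% with TAM. For counts with library totals, they are 26.5% and 10.6% with Rg3, and 6.97% and 26.9% with TAM. For counts without the trend, they are 4.66% and 6.84% with Rg3, and 10.0% and 10.9% with TAM. Of 8 receptors and kinases compared, 2 were called higher with Rg3 and 0 lower, while with TAM 0 were higher and 3 lower. IFNAR1 had 255 counts without an agent, 600 with Rg3 and 119 with TAM, for log2 fold changes of 0.90 (0.69 to 1.12) and -0.89 (-1.22 to -0.57), which became 0.35 and -0.25, neither called, without the trend. IFNGR1, a chain of the interferon gamma receptor, rose with Rg3 by 1.31 (1.03 to 1.61), from 132 to 413 counts, and by 0.61 without the trend, still called. JAK1 fell with TAM, from 1904 to 747 counts, with a log2 fold change of -1.14 (-1.27 to -1.02) and of -0.77 without the trend, still called. IFNAR2 fell with TAM by 0.69, from 278 to 149 counts, and stood at -0.44 without the trend, not called.

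Among the 9 sensors and adaptors compared, 4 were higher and 2 lower with Rg3, with a median of 0.48 beside 0.04 over all genes. TBK1 (1.29), the kinase that activates IRF3, and the RNA sensors IFIH1 (1.19) and DDX58 (1.18) were the largest of those with at least 50 counts. TMEM173, which encodes STING, fell from 77 counts to 41 with Rg3 (-1.24) and to 35 with TAM (-0.93), and TICAM1 fell with Rg3 (-0.77). Without the trend, 0 of the 8 that could be fitted were higher with Rg3, and TMEM173 was still called lower (-0.81 with Rg3 and -1.35 with TAM). With TAM, TBK1 fell by 0.60 and stood at -0.20 without the trend, not called. MAVS was at 0.25 with TAM, not called, and was called higher without the trend, at 0.77. MB21D1, which encodes the DNA sensor cGAS, rose by 0.92 with TAM. It was the gene that could not be fitted, so it has no value without the trend.

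ISG15 is attached to proteins by UBA7, UBE2L6 and HERC5 and removed by USP18. Of 5 such genes compared, 1 was higher and 1 lower with each agent. With Rg3 these were HERC5 (14 to 42 counts) and UBA7 (20 to 5), and with TAM USP18 (61 to 86 counts, 0.70) and UBE2L6 (194 to 105 counts, -0.68). Without the trend, UBA7 with Rg3 and UBE2L6 with TAM were still called lower, and HERC5 and USP18 were not called. Of the 5 feedback inhibitors compared, 2 were higher with Rg3 (PIAS1 at 0.91 and PTPN2 at 0.62) and 0 lower. With TAM, 2 were higher (SOCS3 at 0.74 and again USP18) and 2 lower (PIAS1 at -0.92 and PTPN1 at -0.77). Without the trend, PTPN1 with TAM (-0.64) was the only inhibitor called, and PTPN2 with Rg3 turned to -0.11. Library totals left 0 of the 5 higher with TAM.

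The other type I interferon-stimulated genes did not move as 1 group. Of 33 listed, 21 could be compared. With Rg3, 3 were higher, 5 were lower and 13 were not called, with a median of -0.12 beside 0.04 over all genes. IFIT5, a further IFIT gene, rose by 1.23 (48 to 142 counts), and PARP14 by 1.08. IFITM3, which blocks the entry of viruses into cells, fell by 1.08 (1620 to 969 counts), ISG20 by 0.85 and LGALS3BP by 0.81. Without the trend 1 was higher (PARP14) and 2 were lower, with IFIT5 at 0.36, ISG20 at -0.56 and LGALS3BP at -0.23, not called, and with library totals 5 were higher and 3 lower. With TAM, 2 were higher, 8 were lower and 11 were not called, with a median of -0.73 beside -0.02 over all genes and -0.34 without the trend. IFITM2 fell with TAM by 1.55 (257 to 76 counts) and IFITM3 by 1.44 (1620 to 517 counts), and both were called lower without the trend as well (-1.93 and -1.85). OAS1, which makes the activator of RNase L, rose with TAM by 0.65 (163 to 222 counts) and by 0.59 without the trend. EIF2AK2, the kinase PKR, fell with TAM by 1.25, and stood at -0.34 without the trend, not called. Library totals left 0 of the 21 higher with TAM, OAS1 included, and 11 lower.

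Of the 17 interferon gamma and IRF1 responsive genes, 7 could be compared with Rg3, of which 0 were higher and 2 lower, the immunoproteasome subunits PSMB10 (-0.96) and PSMB8 (-0.71). Neither was called without the trend (-0.45 and -0.38), where 1 of the 7 was higher (NLRC5) and 0 lower, and library totals gave 1 lower. With TAM, 8 could be compared, with 1 higher (GBP2, 5 to 24 counts) and 1 lower (APOL1, 27 to 7 counts). Removing the trend left 1 higher (GBP2) and 3 lower (APOL1, PSMB8 at -0.68 and PSMB9 at -0.79). Library totals gave 1 higher and 2 lower. CXCL9, CXCL10 and CIITA were at 0 in each library. Between TAM and Rg3, TYK2 (0.94), IRF3 (1.01), IRF7 (0.68) and PSMB10 (1.42) were among the pathway genes higher with TAM, and IFNAR1 (-1.79) and EIF2AK2 (-1.80) among those lower. Without the trend only IFNAR1 (-0.60) of these was called. TYK2 stood at 0.15, IRF3 at -0.08, IRF7 at -0.54, PSMB10 at 0.39 and EIF2AK2 at -0.14. Some other genes kept their calls, such as OAS1 (1.10, then 1.165) and JAK1 (-1.34, then -0.69). Of the 21 other type I genes, 2 were higher and 9 lower, beside 27.3% and 30.7% of all genes. Removing the trend gave 3 and 8, beside 15.8% and 14.3%. Of the 8 receptors and kinases, 1 was higher and 4 were lower in both settings, though not all the same genes.

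**Figure D5:**
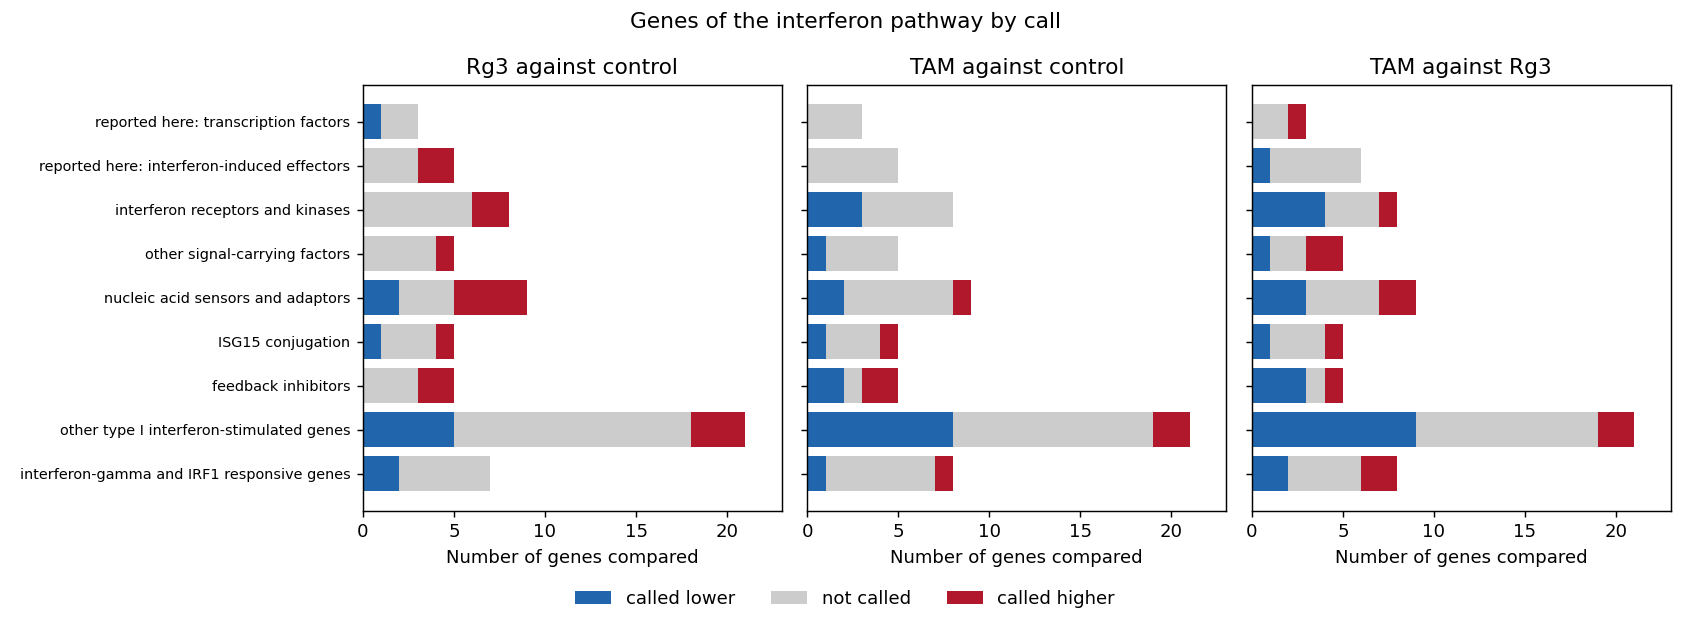
Number of genes called lower (blue), not called (grey) and called higher (red) in each list of the interferon pathway, among genes that could be compared, for the 3 comparisons. The factors and effectors described above are the upper bars, with no coloured part for TAM against control, and the other type I interferon-stimulated genes have 8 lower and 2 higher there.

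The plot of calls by list shows calls in both directions, in each comparison, for the sensors and adaptors, ISG15 conjugation and the other type I genes. With Rg3 against control, each remaining list had calls in a single direction. The 9 genes summed to 2178 (control), 2366 (Rg3) and 1862 (TAM) counts, or 193, 184 and 164 CPM, of which ISG15 was the larger part.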

How the data were processed

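The 9 genes and the lists of pathway genes were chosen with earlier results of these data known. RNA-seq was done on an Ion Proton from total RNA of PANC-1 cells, with 1 library per condition, grouped by the agent in the sample labels. The authors checked reads with FAST-QC, aligned them with TopHat, assembled them with MAQ and deposited raw read counts for 51136 gene symbols. The submitters' processing notes name GRCh38, and the counting tool, annotation and use of strand are not given in the sources used here. Reads on genes came to 11300766 (control), 12861693 (Rg3) and 11321442 (TAM).

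From these counts, TMM factors (1.01, 1.12 and 0.877) were computed with edgeR 4.0.16 in R 4.3.3 over genes with at least 10 counts in any library. Genes that reached 10 counts in either library were compared by the exact two-sided binomial test in SciPy 1.17.1, with Benjamini-Hochberg adjustment over all of them. The test compares the reads of 2 libraries and leaves out variation between cultures, and intervals and floors cover counting error only. The adjusted p limit of 0.05 and the folds of 1.5 and 0.67 follow the study's methods, whose Limma fit needs replicates. For a fold, a count under 3 was taken as 3. Lengths, GC content, positions and shared 50-base stretches came from GENCODE 29, and promoter windows from RefSeq. Named pathway genes were those called with at least 50 counts in a library compared, up to 3 in each direction per list and comparison. Genes under 50 counts named in the text, and MAVS and PSMB9, were added after their values were seen. The nearest genes to ISG15 were taken among genes with at least 100 counts in each library. Alternatives were library totals, size factors from DESeq2 1.42.0, minimums of 1 and 50 counts, calls by fold only, the exact test of edgeR with a variation of 0.2 or 0.4 assumed, a loess trend (span 0.3) on GC content and log length removed, and mean transcript lengths. The steps were tested on simulated data. The result of 1 pathway gene is not reported here.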

Additional observations from a re-analysis of the deposited data

How the results depend on the processing

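No paired analysis was possible because no condition had more than 1 library, and for the same reason no library could be left out. Of the calls with Rg3, the 2 genes higher became 1 with a minimum of 1 count or of 50 counts, 1 other gene (IFI6) without the trend on GC content and transcript length, and 0 with an assumed variation of 0.2 or 0.4. The 1 gene lower with Rg3 became 0 with library totals, with either assumed variation and without the trend. With TAM, 0 genes of the set higher became 1 by the fold alone, beside 17.5% of all genes. The 0 lower became 1 without the trend, beside 10.9%. Between TAM and Rg3, 1 higher became 0 with library totals, with either assumed variation and without the trend, and 2 by the fold alone. The 1 lower became 2 with library totals, 3 by the fold alone and 0 with either assumed variation. Without the trend it was 1 other gene (ISG15 in place of IFIT1). Of all genes, 27.3% higher became 16.5% with library totals, 15.8% without the trend, 30.2% by the fold alone and 13.2% at a variation of 0.2. The 30.7% lower became 41.0%, 14.3%, 35.1% and 17.6% in the same order. DESeq2's size factors kept all 25 fold changes on their side of the limits. Library totals turned 3 directions (IRF1 with Rg3 to 0.12, and between TAM and Rg3 ISG15 to -0.086 and IFI6 to -0.14), and moved the median over all genes from 0.04 to 0.18 with Rg3, from -0.02 to -0.23 with TAM and from -0.07 to -0.42 between them. Removing the trend turned 8: IRF1 to 0.23 and ISG15 to 0.18 with Rg3, IRF9 to -0.17 and IFIT1 to 0.38 with TAM, and ISG15 to -0.82, IFIT1 to 0.17, IFIT2 to 0.22 and IFI6 to -0.49 between TAM and Rg3. What lies behind the trend was not tested. By mean transcript length, 18 of 27 levels moved beyond their intervals. Depth limits IFIT2, IFIT3 and MX1, which had 5 to 30 counts.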
